A study of Mus musculus with 6 samples.

Results

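The genes of oxidative phosphorylation that are encoded in the nucleus were described in mammary tumors and mammary glands of *BK5.ATF3* mice. Members were the genes of the deposited table whose symbol starts with *Nduf*, *Uqcr*, *Atp5* or *Cox4* to *Cox8*, or equals *Sdha*, *Sdhb*, *Sdhc*, *Sdhd*, *Cyc1* or *Cycs*, which gave 87 of the 15280 genes. RNA-Seq data came from 3 mice, each with 1 mammary tumor (libraries T11035, T11640 and T9232) and the adjacent normal mammary gland of the same animal (M11035, M11640 and M9232). All animals were parous females that carried the ATF3 transgene under the bovine keratin 5 promoter, which is active in basal epithelial cells, and tumors were taken at 1.5 cm in length, having arisen at 6 to 12 months of age. Both tissues therefore carried the transgene, and no wild-type gland was analysed here. Differentially expressed genes (DEGs) had a fold change (FC) of 2 or more and an adjusted p of 0.05 or less, by limma with adjustment over all genes. Levels are given in CPM, the authors' normalized expression signal, scaled to the effective size of each library.

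Oxidative phosphorylation is carried out in the inner mitochondrial membrane. Complex I (NADH dehydrogenase) and complex II (succinate dehydrogenase, also an enzyme of the TCA cycle) pass electrons through ubiquinone to complex III, cytochrome c and complex IV (cytochrome c oxidase), and complex V (ATP synthase) makes ATP from the proton gradient. Brown fat and muscle are rich in these proteins, and several complex IV subunits have a separate isoform in heart, skeletal muscle and brown fat. Subunits encoded in the mitochondrial genome were not analysed here, since 0 of 13 were in the table.

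The prefix rule also took in 9 genes that are no subunits by their known role. These were the complex I assembly factors *Ndufaf1*, *Ndufaf2*, *Ndufaf3* and *Ndufaf4*, *Atp5sl* and *Atp5s* (distal membrane-arm assembly component 2 and its paralog), *Cox4nb* (a component of the endoplasmic reticulum membrane complex), *Cox7a2l* (which joins complexes III and IV into supercomplexes) and *Ndufa4l2* (a paralog of *Ndufa4* that is known to be induced in hypoxia). *Ndufa4* was grouped with complex I by its prefix, although its protein is now counted with complex IV. The counts for the 78 other members are given beside those for all 87.

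The glands were not alike. Gland M11035 and gland M11640 held skeletal muscle RNA, with a summed level of 12 skeletal muscle markers of 4679 and 1715 CPM, against 7.25 CPM in gland M9232 and 9.70 to 23.5 CPM in the tumors. *Myh4*, a fast skeletal muscle myosin, was at 2779, 1107 and 0.958 CPM in glands M11035, M11640 and M9232. Skeletal muscle is rich in mitochondria, so the main results are also given with gland M9232 as the only gland. That gland differed in other markers too. In glands M11035, M11640 and M9232, adipocyte markers summed to 5231, 6728 and 3428 CPM and brown fat markers to 974, 769 and 501 CPM. Epithelial markers summed to 251, 325 and 564 CPM. Leaving out 2 glands therefore does not change muscle alone, and which of these differences bears on the members was not tested.

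To show the sequence in front of these genes, their promoters were read from RefSeq (GRCm38.p6, 250 bases before to 50 after the start of transcription), which held 78 promoters of 72 members. The stretches below, from 5 DEGs and from *Atp5g3*, hold the binding motif of a known regulator of these genes or of ATF/CREB proteins, the family of ATF3. Each runs 5′ to 3′ on the strand of the gene, and capitals mark the motif. NRF-1 was searched as GCGCATGCG, GABP as CCGGAAG, ERR as TCAAGGTCA and ATF/CREB as TGACGTCA, all on both strands, and overlaps between motifs were allowed. *Cycs* (chr6:50566612-50566748, minus strand) holds an ATF/CREB and an NRF-1 motif, *Ndufa10* (chr1:92473808-92473835, minus strand) and *Uqcrfs1* (chr13:30545328-30545355, minus strand) an ATF/CREB motif, *Sdhd* (chr9:50603879-50603905, minus strand) a GABP motif, *Cox6a1* (chr5:115348959-115349130, minus strand) an NRF-1 and a GABP motif, and *Atp5g3* (chr2:73911360-73911388, minus strand) an ERR motif.
Cycs: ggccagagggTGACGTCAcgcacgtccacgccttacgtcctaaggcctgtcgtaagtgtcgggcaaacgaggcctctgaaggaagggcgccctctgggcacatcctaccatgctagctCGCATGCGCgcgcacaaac
Ndufa10: cactcagtggTGACGTCAtggcagcgcg
Uqcrfs1: ggcgtcgcgcTGACGTCAcaaaccctgc
Sdhd: cgtctcctgcCTTCCGGttcacgcttc
Cox6a1: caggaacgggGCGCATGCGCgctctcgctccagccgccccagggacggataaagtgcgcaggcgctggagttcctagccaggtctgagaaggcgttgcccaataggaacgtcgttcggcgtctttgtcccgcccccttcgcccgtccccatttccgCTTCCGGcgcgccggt
Atp5g3: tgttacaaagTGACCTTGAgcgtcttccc

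The NRF-1 motif was present in 12.8% of the promoters of members and in 1.75% of all 32851 promoters. For GABP these shares were 21.8% and 8.86%, for YY1 (ATGGCGG) 16.7% and 4.05%, for ERR 2.56% and 0.423%, and for ATF/CREB 6.41% and 1.79%. The ATF/CREB motif stood in the promoters of *Ndufa10*, *Uqcrfs1*, *Cycs*, *Ndufb2* and *Ndufa11*, and the ERR motif in those of *Sdhd* and *Atp5g3*. *Ndufa10*, *Uqcrfs1* and *Cycs* were DEGs, while *Ndufb2* (log2 fold change -0.32 ± 0.20, adjusted p = 0.236) and *Ndufa11* (log2 fold change -0.32 ± 0.35, adjusted p = 0.499) were not. The median log2 fold change (tumor minus gland) was -0.69 in the 10 members with the NRF-1 motif and -0.90 in the others, and -0.86 in the 17 members with the GABP motif and -0.90 in the others. It was -1.08 in the 11 members with the YY1 motif and -0.84 in the others, and -0.95 and -0.88 with and without the ERR motif. For ATF/CREB it was -1.355 in the 5 members with the motif, which is the value of *Cycs*, and -0.86 in the others. The ATF/CREB stretches of *Ndufb2* and *Ndufa11* are not printed above. These matches are a description of letters, and binding was not measured.

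Most nuclear oxidative phosphorylation genes were lower in the tumors. By limma, 31 of 87 members (35.6%) were DEGs with a lower level in tumors, against 13.7% of all genes tested. In the other direction, 1 member, *Ndufa4l2*, was a DEG, against 14.5% of all genes. By the adjusted p alone, 56 members (64.4%) were lower, against 19.6% of all genes, and 2 were higher, against 21.6%. The 3 tumors were all below the 3 glands in 61 members (70.1%), against 26.3% of all genes, and all above them in 2 members, against 27.6%. Without the 9 genes that are no subunits, 29 of 78 members were lower DEGs and 52 were lower by the adjusted p alone. In bulk tissue, fewer cells of a type and less RNA per cell cannot be told apart.

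The summed level of the 87 members was 11773, 12382 and 7848 CPM in glands M11035, M11640 and M9232 and 4571, 5623 and 5385 CPM in the tumors of the same mice. The means were 10670 ± 2461 CPM in glands and 5193 ± 551 CPM in tumors (SD, n = 3 each), 2.06-fold apart, and the groups did not overlap. The spread lay mostly among the glands, with gland M9232 nearest to the tumors. The median log2 fold change over members was -0.90 (quartiles -1.16 and -0.53), against 0.00 over all genes. Within mice, the median was -1.39 in the mouse of T11035, where 85 members were lower in the tumor, -1.01 in the mouse of T11640 with 84 lower, and -0.30 in the mouse of T9232 with 64 lower.

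The size of the result depended on the gland. The share of all genes called was not counted in fits that leave out libraries, here or in the counts by complex and list below. Such fits also differ in power, so their counts of DEGs do not measure the size of the difference alone. With gland M9232 left out, 53 members were lower DEGs. With the muscle-bearing glands M11035 and M11640 left out, an alternative added after seeing the data, 6 members were lower DEGs and the median log2 fold change was -0.45. That fit rests on 1 gland and assumes that it varies as the tumors do. These included *Cox8b*, *Cox7a1*, *Sdha*, *Sdhd* and *Ndufa10*, and all 6 were DEGs with every library included. The other lower DEGs, among them *Cycs*, *Atp5b* and *Cox4i1*, did not pass there. *Ndufa4l2* was called higher in both fits.

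**Figure D1:**
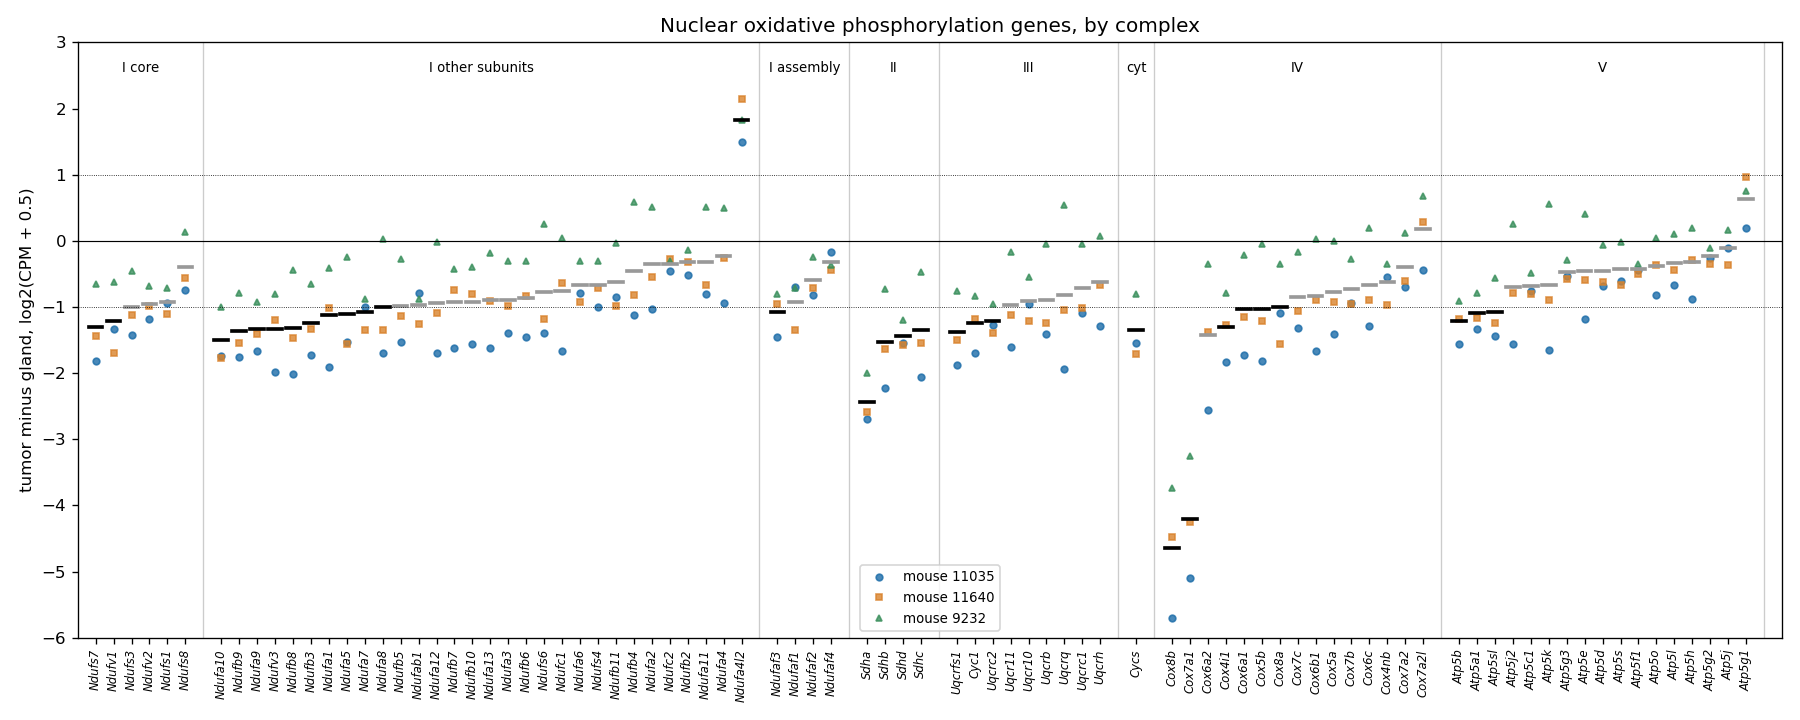
Log2 fold change (tumor minus gland, on log2(CPM + 0.5)) of the members by complex, without 1 that is not reported by name. Symbols give the difference within each of the 3 mice, bars the mean over mice (black for DEGs, grey for the others), and dotted lines a fold change of 2 in either direction. The mouse of T9232 lies nearest to 0, with a median of -0.30 over members.

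Complex I oxidizes NADH. All 7 of its core subunits in the table had a negative log2 fold change, and 3 were lower DEGs. *Ndufs7* was at 25.4, 16.5 and 11.1 CPM in glands M11035, M11640 and M9232 and at 6.88, 5.77 and 6.89 CPM in the tumors of the same mice, without overlap. *Ndufs7* (log2 fold change -1.30 ± 0.30, adjusted p = 0.00844) and *Ndufv1* (log2 fold change -1.22 ± 0.23, adjusted p = 0.0031), which carry an iron-sulfur cluster and bind NADH, respectively, were among these DEGs. *Ndufs8*, another iron-sulfur subunit, moved least, at 19.9, 18.2 and 12.3 CPM in glands and 11.7, 12.2 and 13.5 CPM in tumors. These ranges overlapped (log2 fold change -0.39 ± 0.22, adjusted p = 0.198). Without gland M9232, 6 core subunits were lower DEGs, and with it as the only gland 1 was.

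Among the 30 other members with the *Nduf* prefix, 10 were lower DEGs and 21 were lower by the adjusted p alone. *Ndufa10*, an accessory subunit of the membrane arm, had the largest fall among them, from 158, 201 and 118 CPM in glands to 47.1, 58.5 and 59.0 CPM in tumors, without overlap (log2 fold change -1.50 ± 0.21, adjusted p = 0.000659). The lower DEGs among the 30 were 19 without gland M9232 and 1 with it as the only gland. By the adjusted p alone, 10 to 14 were lower when any of the other 5 libraries was left out, and 3 with M9232 as the only gland. *Ndufb9*, *Ndufa9*, *Ndufv3*, *Ndufb8*, *Ndufb3*, *Ndufa1*, *Ndufa5*, *Ndufa7* and *Ndufa8* were the remaining lower DEGs, with log2 fold changes of -1.36 to -1.01. *Ndufa4* did not pass (log2 fold change -0.23 ± 0.24, adjusted p = 0.473), with tumor T9232 at 160.5 CPM above gland M9232 at 114 CPM. Of the 4 assembly factors, *Ndufaf3* was a DEG (log2 fold change -1.07 ± 0.23, adjusted p = 0.00557), *Ndufaf1* passed by the adjusted p alone (log2 fold change -0.92 ± 0.25, adjusted p = 0.0181), and *Ndufaf2* (log2 fold change -0.59 ± 0.22, adjusted p = 0.0635) and *Ndufaf4* (log2 fold change -0.32 ± 0.24, adjusted p = 0.317) did not pass.

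Complex II, which is wholly encoded in the nucleus, was the complex in which every member was a lower DEG (4 of 4). The summed level was 1354, 1395 and 856 CPM in glands and 268, 309 and 302 CPM in tumors, a difference of 4.10-fold in the means. *Sdha*, the flavoprotein that oxidizes succinate (chr13:74459702-74487728, mm9, minus strand), was at 889, 930.3 and 553 CPM in glands M11035, M11640 and M9232. It was at 137, 154 and 138 CPM in the tumors, all far below the lowest gland (log2 fold change -2.43 ± 0.20, adjusted p = 4.21e-05), a mean 5.54-fold lower. Between T9232 and M9232 alone the difference was -1.999 on the log2 scale.

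The other subunits of complex II had log2 fold changes nearer to 0. *Sdhb*, the iron-sulfur subunit (chr4:140517118-140535108, plus strand), was at 56.7, 43.6 and 30.5 CPM in glands and 11.7, 13.8 and 18.1 CPM in tumors (log2 fold change -1.53 ± 0.26, adjusted p = 0.00199). *Sdhc*, a membrane anchor, was at 197, 141 and 95.6 CPM in glands and 47.1, 48.1 and 68.9 CPM in tumors (log2 fold change -1.35 ± 0.27, adjusted p = 0.00427). *Sdhd*, the other anchor and the holder of the GABP motif printed above, was at 212, 280.5 and 176 CPM in glands and 72.6, 94.0 and 76.7 CPM in tumors (log2 fold change -1.44 ± 0.20, adjusted p = 0.000583). For each of the 3, all tumors were below all glands. Per kilobase of transcript, the level of *Sdha* was 273 CPM in glands and 49.2 CPM in tumors, against 173 and 63.0 CPM for *Sdhd*, 45.5 and 17.2 CPM for *Sdhc* and 38.2 and 12.7 CPM for *Sdhb*. *Sdha* thus stood above *Sdhd* in glands and below it in tumors on this scale, which rests on 1 annotated transcript of each gene. With gland M9232 as the only gland, *Sdha* and *Sdhd* were DEGs and *Sdhb* and *Sdhc* did not pass.

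In complex III, all 9 members had a negative log2 fold change, 3 were lower DEGs and 7 were lower by the adjusted p alone. *Uqcrfs1*, the Rieske iron-sulfur protein, was at 192, 135 and 88.6 CPM in glands and 51.7, 47.7 and 52.4 CPM in tumors, without overlap (log2 fold change -1.37 ± 0.26, adjusted p = 0.00302). *Cyc1*, cytochrome c1 (log2 fold change -1.24 ± 0.21, adjusted p = 0.00201), and *Uqcrc2*, a core protein (log2 fold change -1.21 ± 0.20, adjusted p = 0.00155), were the other DEGs. *Uqcrh*, the hinge protein, had the smallest change (log2 fold change -0.62 ± 0.23, adjusted p = 0.0626). The lower DEGs of complex III were 7 without gland M9232 and 5 without tumor T9232, and by the adjusted p alone 3 to 4 members were lower without M11035, M11640, T11035 or T11640. With M9232 as the only gland 0 were lower DEGs by limma, 2 were lower by the adjusted p alone and 3 had an unadjusted p under 0.05. *Cycs*, the mobile carrier cytochrome c, was at 512, 724 and 306 CPM in glands and 174, 221 and 176 CPM in tumors (log2 fold change -1.35 ± 0.28, adjusted p = 0.0053), with all tumors below all glands. The *Cycs* transcript has 6 near-identical copies elsewhere in the genome, so its fragments may be divided between loci.

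Complex IV held the single members with the largest falls, but not the largest fall as a group. Its median log2 fold change was -0.85, against -0.92 for complex I, -1.48 for complex II, -0.90 for complex III and -0.46 for complex V. Of its 15 members, 6 were lower DEGs (40.0%, against 13.7% of all genes). By the adjusted p alone, 11 were lower (73.3%, against 19.6% of all genes). The lower DEGs were 10 without gland M9232, 3 without gland M11035 or M11640 and 2 with M9232 as the only gland. By the adjusted p alone, 5 to 7 members were lower when M11035, M11640, T11035 or T11640 was left out, and 2 with M9232 as the only gland. *Cox4i1*, the common isoform of a regulatory subunit, was at 198, 196 and 151 CPM in glands and 55.1, 81.3 and 86.9 CPM in tumors, without overlap (log2 fold change -1.30 ± 0.21, adjusted p = 0.0013). *Cox6a1* (log2 fold change -1.03 ± 0.25, adjusted p = 0.0117), *Cox5b* (log2 fold change -1.02 ± 0.28, adjusted p = 0.0199) and *Cox8a* (log2 fold change -1.002 ± 0.24, adjusted p = 0.0101) were DEGs near the threshold. *Cox7a2l* did not pass, at 121, 82.8 and 98.1 CPM in glands and 89.7, 100.4 and 158 CPM in tumors (log2 fold change 0.18 ± 0.24, adjusted p = 0.586).

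*Cox8b* and *Cox7a1*, subunit isoforms of heart, muscle and brown fat, had the largest falls of all members. *Cox8b* (chr7:148084842-148086345, mm9, minus strand) was at 25.6, 13.5 and 6.16 CPM in glands M11035, M11640 and M9232 and at 0, 0.131 and 0 CPM in the tumors. All tumors were at or under the floor of 3 fragments (0.393 to 0.558 CPM), so the mean was at least 32.4-fold lower (log2 fold change -4.64 ± 0.48, adjusted p = 0.000124). *Cox7a1* (chr7:30969190-30971047, plus strand) was at 42.1, 16.5 and 7.11 CPM in glands and 0.744, 0.393 and 0.300 CPM in tumors (log2 fold change -4.20 ± 0.56, adjusted p = 0.000514). Both were lowest in gland M9232 among the glands, and between T9232 and M9232 their log2 differences were -3.73 and -3.25. *Cox6a2* was at 2.44, 1.49 and 0.137 CPM in glands and 0, 0.262 and 0 CPM in tumors and did not pass (log2 fold change -1.43 ± 0.59, adjusted p = 0.0852).

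The log2 ratio of *Cox7a1* to *Cox7a2* was -0.42, -2.11 and -2.57 in glands and -4.82, -5.75 and -5.93 in tumors. It differed by -3.80 (exact permutation test, two-sided, p = 0.1, the smallest that 3 against 3 allows, adjusted over 4 pairs p = 0.133). The ratio of *Cox8b* to *Cox8a* was -0.29, -1.31 and -1.72 in glands and -4.91, -4.22 and -5.11 in tumors, a difference of -3.64 with the same exact p of 0.1. Neither ratio overlapped between tissues, and this design could not reach a p of 0.05. *Cox6a2* over *Cox6a1* differed by -0.40 (exact permutation p = 0.4), with overlap. *Cox7a2* itself did not pass (log2 fold change -0.40 ± 0.22, adjusted p = 0.184). The size of these differences depended on the pseudocount. With pseudocounts of 0.1 and 1, the difference was -4.56 and -3.25 for *Cox7a1* over *Cox7a2* and -5.60 and -2.775 for *Cox8b* over *Cox8a*.

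**Figure D2:**
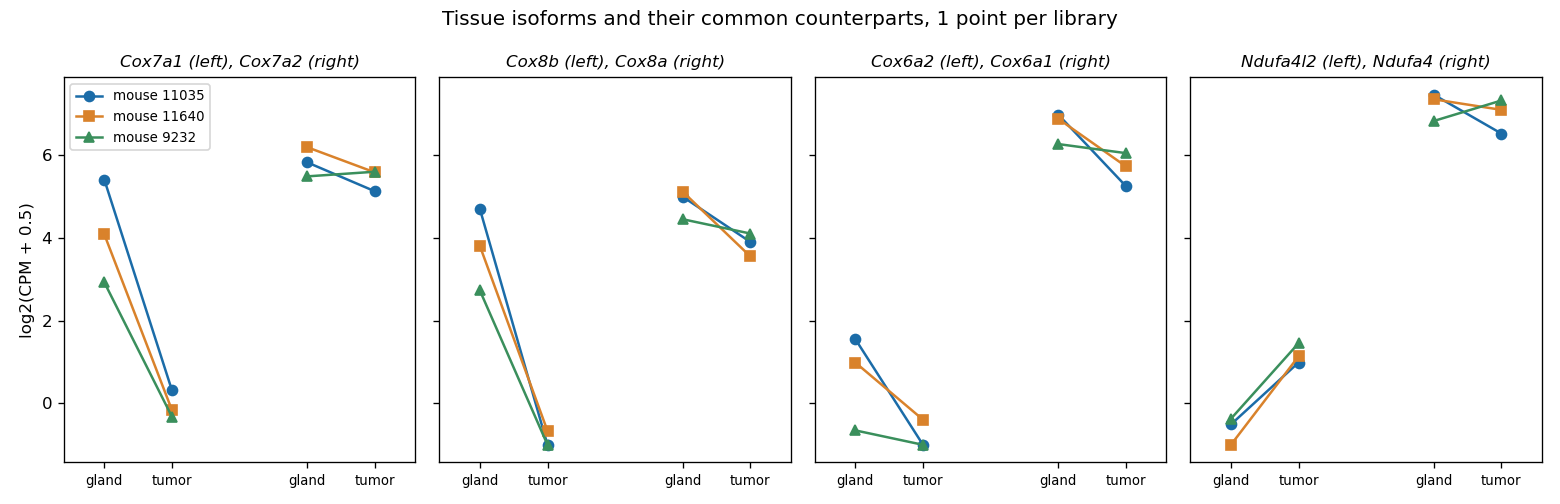
Levels of 4 pairs of isoforms in each library, as log2(CPM + 0.5), with a line joining the gland and the tumor of a mouse. *Cox7a1* and *Cox8b* fell to near the floor in all tumors, while *Cox7a2* stayed between 34.6 and 73.0 CPM in all libraries.

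*Ndufa4l2* was the DEG in the opposite direction. It was at 0.203, 0 and 0.274 CPM in glands and 1.49, 1.70 and 2.25 CPM in tumors. All glands were at or under the floor of 3 fragments and all tumors above it, at least 3.59-fold higher (log2 fold change 1.82 ± 0.37, adjusted p = 0.00458). Its ratio to *Ndufa4* differed by 2.06 on the log2 scale (exact permutation p = 0.1), and by 3.305 and 1.51 with pseudocounts of 0.1 and 1. Its exons overlap *Shmt2*, a serine hydroxymethyltransferase gene, and the strand of the counts is not stated.

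Complex V had the smallest median difference of these groups. Of its 17 members, 3 were lower DEGs (17.65%, against 13.7% of all genes). By the adjusted p alone, 4 were lower (23.5%, against 19.6% of all genes) and 1 was higher. These shares were near those of all genes. The median log2 fold change was -0.46, and 16 members had a negative value, against 50.2% of all genes. Without gland M9232, 12 were lower by the adjusted p alone. With it as the only gland 0 were lower DEGs by limma, 1 was lower by the adjusted p alone and 3 had an unadjusted p under 0.05. *Atp5b*, the catalytic β subunit, was at 2145, 2802 and 1658 CPM in glands and 729, 1240.5 and 883 CPM in tumors, without overlap (log2 fold change -1.21 ± 0.24, adjusted p = 0.00443). *Atp5a1*, the α subunit, was at 1022, 1009.5 and 705 CPM in glands and 404, 449 and 408 CPM in tumors (log2 fold change -1.10 ± 0.17, adjusted p = 0.00112). *Atp5c1*, the γ subunit in the central stalk, passed by the adjusted p alone (log2 fold change -0.68 ± 0.17, adjusted p = 0.0116). *Atp5d* (log2 fold change -0.45 ± 0.20, adjusted p = 0.106) and *Atp5e* (log2 fold change -0.46 ± 0.27, adjusted p = 0.213), the other stalk subunits, did not pass, nor did *Atp5j* (log2 fold change -0.10 ± 0.17, adjusted p = 0.663), a subunit of the peripheral stalk whose exons overlap *Gabpa*. The third DEG was *Atp5sl* (log2 fold change -1.08 ± 0.29, adjusted p = 0.0159), which is no subunit.

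The membrane ring of ATP synthase is built from the identical mature product of *Atp5g1*, *Atp5g2* and *Atp5g3*. *Atp5g1* was at 25.8, 16.8 and 19.8 CPM in glands and 29.6, 33.4 and 33.9 CPM in tumors, all tumors above all glands, and was higher by the adjusted p alone (log2 fold change 0.64 ± 0.20, adjusted p = 0.0308). *Atp5g2* (log2 fold change -0.24 ± 0.16, adjusted p = 0.256) and *Atp5g3* (log2 fold change -0.47 ± 0.17, adjusted p = 0.0594) did not pass, with lower means in tumors. The annotated *Atp5g1* transcript has 45 near-identical stretches elsewhere in the genome, so its level is uncertain.

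Regulators of mitochondrial biogenesis were found in both directions, with a share of lower DEGs near that of all genes. Of 15 in the list, 3 were lower DEGs (20.0%, against 13.7% of all genes). In the other direction 1 was a DEG, against 14.5% of all genes, and the median log2 fold change was -0.20. *Ppargc1a*, the coactivator PGC-1α, was at 71.2, 62.8 and 43.2 CPM in glands and 6.14, 3.01 and 1.798 CPM in tumors, without overlap (log2 fold change -3.95 ± 0.38, adjusted p = 8.41e-05). *Esrrg*, an estrogen-related receptor, was at 11.2, 8.09 and 9.44 CPM in glands and 2.05, 0.131 and 0.150 CPM in tumors (log2 fold change -3.30 ± 0.53, adjusted p = 0.00136). *Ppargc1b*, PGC-1β, was the other lower DEG (log2 fold change -1.10 ± 0.26, adjusted p = 0.01). The higher DEG was *2310042D19Rik*, which RefSeq names *Perm1*, a muscle regulator (log2 fold change 1.798 ± 0.38, adjusted p = 0.00546). With gland M9232 as the only gland 1 regulator, *Ppargc1a*, remained a lower DEG.

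*Nrf1*, *Gabpa*, *Gabpb1* and *Yy1*, which code for NRF-1, the GABP subunits and YY1, and *Esrra*, which codes for a relative of *Esrrg*, did not pass. The log2 fold changes were -0.04 for *Nrf1* (adjusted p = 0.901 by limma), -0.06 for *Gabpa* (adjusted p = 0.736), 0.19 for *Gabpb1* (adjusted p = 0.451), 0.33 for *Yy1* (adjusted p = 0.106) and -0.06 for *Esrra* (adjusted p = 0.912). *Esrrb* was low in all libraries and did not pass (log2 fold change -1.26 ± 0.47, adjusted p = 0.0585). *Tfam*, which packs and transcribes mitochondrial DNA (log2 fold change -0.49 ± 0.16, adjusted p = 0.0347), and *Tfb2m*, a mitochondrial transcription factor (log2 fold change -0.66 ± 0.17, adjusted p = 0.0131), were lower by the adjusted p alone. *Pprc1*, a PGC-1 related coactivator, was higher by the adjusted p alone (log2 fold change 0.89 ± 0.20, adjusted p = 0.00776). *Tfb1m* (-0.20) and *Polrmt* (-0.31) did not pass.

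Other mitochondrial lists fell on both sides of the members. Of 13 TCA cycle enzymes, 11 were lower DEGs and the median log2 fold change was -1.60. *Mdh2*, malate dehydrogenase, had the smallest fall of that list (log2 fold change -0.80 ± 0.24, adjusted p = 0.0281). Of 17 genes of mitochondrial β-oxidation, 15 were lower DEGs with a median of -2.21, and *Hadhb*, the thiolase of the trifunctional protein, went from 945, 1184 and 633 CPM in glands to 113, 134 and 105 CPM in tumors (log2 fold change -2.93 ± 0.23, adjusted p = 2.75e-05). *Cpt1a*, which admits long-chain fatty acids, had the smallest fall among them (log2 fold change -0.72 ± 0.24, adjusted p = 0.0412). Of 13 genes of pyruvate entry, 10 were lower DEGs and 1 was higher, with a median of -2.08. *Pcx*, pyruvate carboxylase, fell most (log2 fold change -5.25 ± 0.46, adjusted p = 5.34e-05), and *Pdk3*, a pyruvate dehydrogenase kinase, was the higher DEG (log2 fold change 1.19 ± 0.22, adjusted p = 0.00316). With gland M9232 as the only gland, these medians were -1.02, -1.73 and -1.515, and 8, 15 and 9 genes were lower DEGs.

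Other parts of the organelle changed less. Of 75 mitochondrial ribosomal protein genes, 1 was a lower DEG (1.33%, against 13.7% of all genes), *Mrps6* (log2 fold change -1.997 ± 0.21, adjusted p = 0.000128). The median log2 fold change of that list was -0.22. By the adjusted p alone, 7 were lower (9.33%, against 19.6% of all genes). At that rule 1 was higher, against 21.6% of all genes, and it was *Mrpl52* (log2 fold change 0.93 ± 0.25, adjusted p = 0.0186). Of 16 genes of the outer membrane, protein import and the inner membrane organizing system, 0 were DEGs by limma, by edgeR or by DESeq2, and 4 had an unadjusted limma p under 0.05. In that list 2 were lower and 2 higher by the adjusted p alone, among them *Immt*, which shapes cristae (log2 fold change -0.79 ± 0.20, adjusted p = 0.0133), and *Tomm20*, an import receptor (log2 fold change 0.59 ± 0.13, adjusted p = 0.0078). Of 10 complex I and II assembly factors outside the prefix rule, 0 were DEGs by limma, by edgeR or by DESeq2, 4 had an unadjusted limma p under 0.05 and 3 were lower by the adjusted p alone, and *Tmem126b* (-0.88) and *Sdhaf2* (-0.16) were the extremes.

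Among 23 genes of complex III and IV assembly and of ADP/ATP exchange, 2 were lower DEGs (8.70%, against 13.7% of all genes). In the other direction 1 was a DEG, against 14.5% of all genes, and the median was -0.42. The extremes were both mitochondrial creatine kinases. *Ckmt2*, the sarcomeric form, was at 44.5, 13.5 and 0.410 CPM in glands and 0, 0.393 and 0 CPM in tumors, where all libraries were at or under the floor (log2 fold change -3.78 ± 1.19, adjusted p = 0.0329), and its call was lost when any of 5 libraries was left out in turn. *Ckmt1*, the ubiquitous form, was at 2.85, 4.62 and 4.51 CPM in glands and 65.5, 61.7 and 43.9 CPM in tumors (log2 fold change 3.68 ± 0.25, adjusted p = 1.48e-05). Of 6 genes of complex V assembly and inhibition, 1 was a lower DEG (16.7%, against 13.7% of all genes), the assembly factor *Atpaf2* (log2 fold change -1.13 ± 0.19, adjusted p = 0.00206). *Atpif1*, the inhibitor of the reverse reaction, was higher by the adjusted p alone (log2 fold change 0.71 ± 0.24, adjusted p = 0.045).

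**Figure D3:**
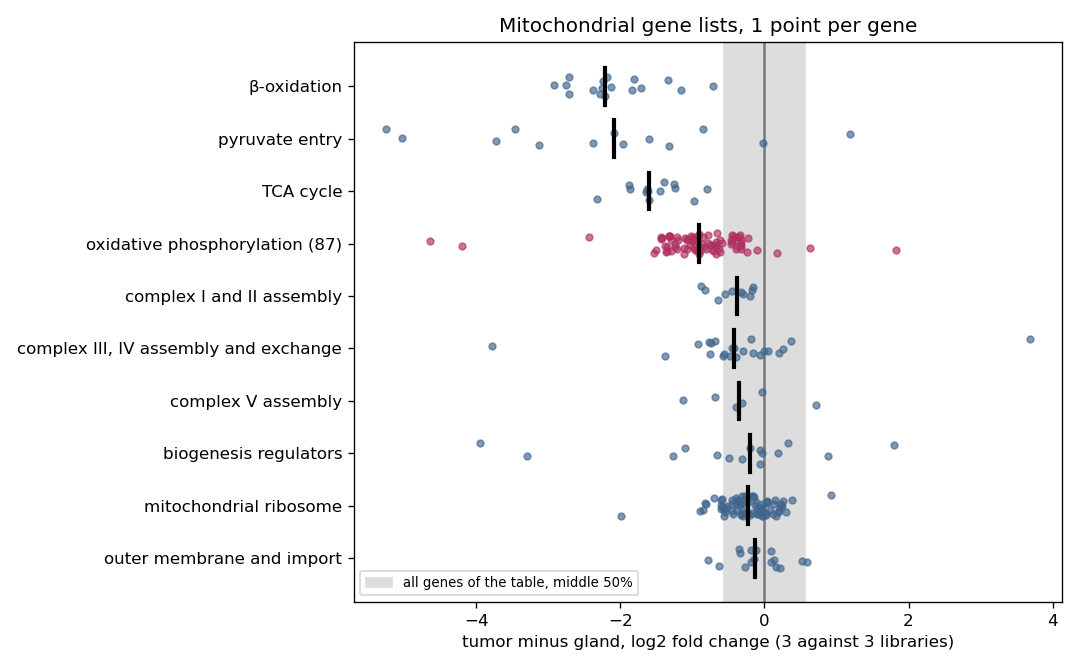
Log2 fold change (tumor minus gland) of each gene in 10 mitochondrial lists, with the median of a list as a black bar. The grey band is the middle 50% of all genes in the table. The 87 members have a median of -0.90, above the β-oxidation list at -2.21 and below the mitochondrial ribosome at -0.22.

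Markers of cell types also differed between the tissues, in both directions. All 10 adipocyte markers were lower DEGs, and their summed level was 3428 to 6728 CPM in glands and 160.5 to 221 CPM in tumors. Of 9 brown fat markers, 8 were lower DEGs, with sums of 501 to 974 CPM in glands and 48.9 to 85.6 CPM in tumors. This list shares *Pdk4* (249 to 289 CPM in glands) with pyruvate entry and *Ppargc1a* with the biogenesis regulators, so these lists are not independent. *Ucp1*, the uncoupling protein that defines brown fat, was at 432, 299 and 118 CPM in glands M11035, M11640 and M9232 and at 0.372, 0.393 and 0.300 CPM in tumors, all at or under the floor of 3 fragments. *Dio2*, another marker of that list, did not pass (log2 fold change 0.37 ± 0.32, adjusted p = 0.384). Of 12 skeletal muscle markers, 4 were lower DEGs (33.3%, against 13.7% of all genes), and *Myh4* did not pass with 3 glands so far apart (log2 fold change -6.80 ± 2.48, adjusted p = 0.0557). Of 10 epithelial markers, 8 were higher DEGs, with sums of 251 to 564 CPM in glands and 2191 to 2823 CPM in tumors. All 9 B and T cell markers in the table were lower DEGs, with sums of 244 to 623 CPM in glands and 16.6 to 28.0 CPM in tumors. Of 8 endothelial markers, 3 were lower DEGs (37.5%, against 13.7% of all genes). Of 8 macrophage and neutrophil markers, 1 was lower (12.5%, near the share of all genes) and 3 were higher, against 14.5% of all genes. The part of these cell types in the levels of the members was not tested.

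**Figure D4:**
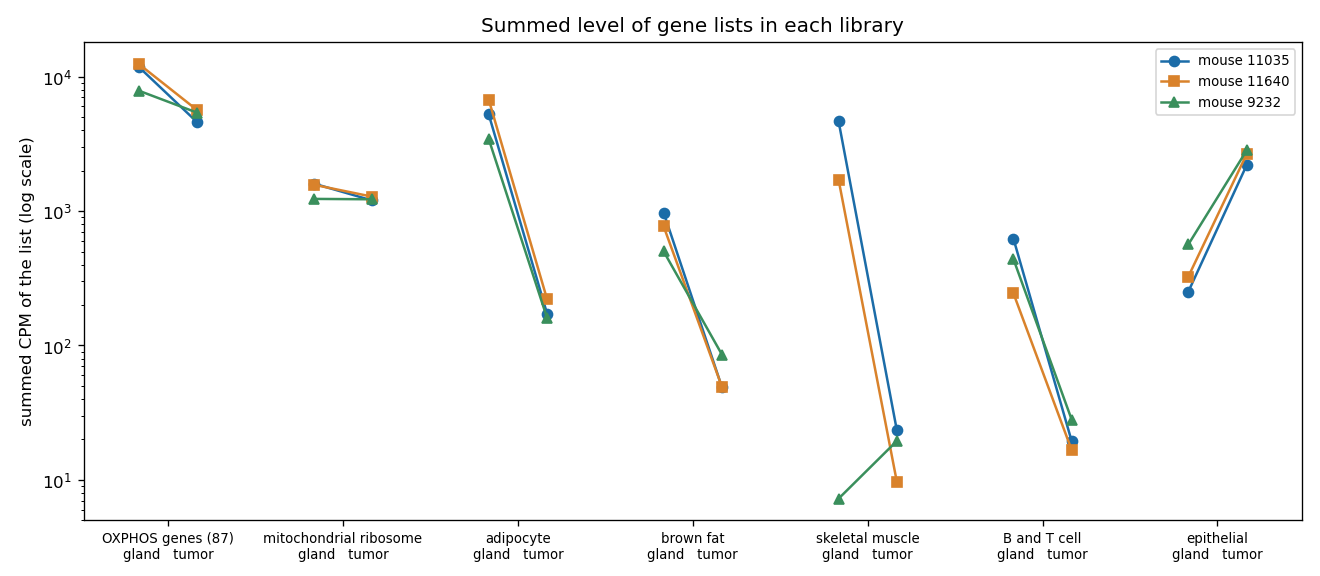
Summed CPM of the 87 members and of marker lists in each library on a log axis, with a line joining the gland and the tumor of a mouse. The members were at 7848 to 12382 CPM in glands and 4571 to 5623 CPM in tumors, and skeletal muscle markers were high in glands M11035 and M11640 and at 7.25 CPM in gland M9232.

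Many of these genes are short and have processed copies in the genome. Of the 87 members, 29 had a copy of at least 150 bp and 95% identity elsewhere in mm9, and their median log2 fold change was -0.68, against -0.99 in the other 58. Of the 31 lower DEGs, 28 had no such copy. Exons of 16 members overlapped another gene of the table. Across the 87 members, the Spearman correlation of transcript length with the log2 fold change was -0.08 for the mean of 3 mice, and 0.14, -0.09 and -0.27 within the mice of T11035, T11640 and T9232. Between T9232 and M9232 the median was -0.18 in the 29 shortest members and -0.69 in the 29 longest. The members share libraries, and each length is that of 1 annotated transcript of the gene, so these correlations and medians are descriptions.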

How the data were processed

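RNA-Seq data of 3 tumors (T11035, T11640, T9232) and 3 adjacent normal glands of the same mice (M11035, M11640, M9232) were used, grouped by the labels. According to the methods and the submitters' processing notes, the authors prepared libraries with the Ovation RNA-Seq System V2, mapped fragments to mm9 with TopHat 2.0.3, counted them on RefSeq genes with HTSeq and removed genes with few fragments. The strand of the counts is not given in the sources used here. The authors deposited a normalized signal for each gene, in CPM on edgeR's effective library size. All values (100%, tolerance 0.01) were whole multiples of a step, so fragments were recovered, with 4750989 to 7806908 on genes in each library. A floor of 3 fragments is 0.393 to 0.610 CPM, and it covers counting error alone. No per-sample column was left out.

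Tests were made with limma 3.58.1 under R 4.3.3 (two-sided, mean-variance trend, Benjamini-Hochberg over all genes) on log2(CPM + 0.5), and fold changes are on that scale, which understates those of low genes. Errors of log2 fold changes are standard errors. The test was chosen for CPM, and the unit was recorded as a signal because columns do not sum to 1 total. The script was checked on simulated data. Each tumor is paired with a gland by the animal. Across 14712 genes, deviations of paired libraries from their group means correlated with r = 0.107 for T11035, 0.151 for T11640 and 0.0168 for T9232. The methods name no block, so the fit without it is the main one and the block is an alternative, as are edgeR 4.0.16 and DESeq2 1.42.0 on recovered fragments, other scalings, pseudocounts and filters, and leaving out libraries. Isoform ratios used an exact permutation test, and *Cox4i2* and *Cox6b2*, planned for 2 more of 6 pairs, were not analysed here.

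Members, gene lists, markers and motifs were chosen with earlier results of these data known. Named genes are the extremes of each complex and list, the *Sdh*, *Atp5g* and isoform genes, the regulators and DEGs against the median; other names were picked with values already seen. Positions and transcript lengths came from GENCODE vM1 (mm9), for 87 of 87 members, and copies in the genome from BLAST 2.17.0. Each length is that of 1 annotated transcript of the gene, which can be long for a small subunit (4371 bp for *Ndufb2*, 4715 bp for *Atp5g1*). Which transcript the tissues held was not tested. Promoters came from RefSeq (GRCm38.p6), for 72 of 87 members, and are the only GRCm38.p6 coordinates given. Of the members and of the TCA cycle list, 1 gene each is counted but not reported by name here.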

Additional observations from a re-analysis of the deposited data

How the results depend on the processing

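The number of lower DEGs among the 87 members was 28 to 37 under other pseudocounts, filters, scalings, tests and the replicate block, against 31 in the reported fit, and 23 to 53 when 1 library was left out, the highest without gland M9232 (31 of them shared). By the adjusted p alone it was 54 to 59, against 56, and 33 to 72 when 1 library was left out. With gland M9232 as the only gland it was 6 and 12, all shared with the reported fit. edgeR's quasi-likelihood test gave 36 lower DEGs and DESeq2 37, and each shared all 31. With the mouse as a replicate block there were 31 lower DEGs, all shared, and 54 by the adjusted p alone, of which 52 were shared. The number of higher DEGs was 0 once genes averaging under 1 CPM were dropped, a filter that removes *Ndufa4l2*. The number higher by the adjusted p alone was 1 with that filter, 1 with gland M9232 as the only gland and 1 to 2 when 1 library was left out. The median log2 fold change over members was -0.95 to -0.88 under the other settings and -1.11 to -0.71 when 1 library was left out. The ratio of *Cox6a2* to *Cox6a1* turned to 0.044 with a pseudocount of 1 and to 0.45 with gland M9232 as the only gland, where the medians of the mitochondrial ribosome and of the outer membrane and import list also turned, to 0.016 and 0.15. With that gland as the only one, lower DEGs numbered 1 among biogenesis regulators and 0 by limma in the list of complex III and IV assembly and exchange (3 at an unadjusted p under 0.05) and in that of complex V assembly (2 at that p). When 1 library was left out they numbered 1 to 3 in the exchange list, 0 to 1 in complex I and II assembly outside the prefix rule and 1 to 3 in the mitochondrial ribosome. The cause was not tested, and the share of all genes called was not counted under these settings. Over 72 named genes, 1010 of 1077 values kept direction and side of the threshold, 36 lost the call, 16 gained it and 15 turned, all in genes without a call. With gland M9232 as the only gland, *Ndufs8* turned to 0.015, *Ndufaf4* to 0.066, *Ndufa4* to 0.15, *Nrf1* to 0.036, *Gabpa* to 0.0058, *Myh7* to 0.46, *Myh4* to 0.022 and *Epcam* to -0.11. When 1 library was left out, *Cox7a2l* was at -0.068 to 0.34, *Esrra* at -0.29 to 0.18, *Nrf1* at -0.19 to 0.10 and *Myh7* at -1.33 to 0.46. The calls of *Cox8a*, *Cox6a1* and *Ndufaf3* were each lost when some single libraries were left out. *Sdhb*, *Sdhc*, *Uqcrfs1*, *Cycs*, *Atp5b* and *Cox4i1* lost theirs with gland M9232 as the only gland.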
